A study of Homo sapiens with 4 samples.

Results

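The 10 genes described here encode the transforming growth factor beta (TGF-beta) ligands TGFB1, TGFB2 and TGFB3, the receptors TGFBR1, TGFBR2 and TGFBR3, and the intracellular mediators SMAD2, SMAD3, SMAD4 and SMAD7. They were taken by gene symbol from a table of 57820 genes, in which each symbol had 1 row. All 10 were among the 14616 genes with enough counts to be tested. The cells were U87, a long-established line from a human glioma. One group, shGlud1, carried a knockdown hairpin against the mitochondrial glutamate dehydrogenase gene GLUD1, and the other, shNT, is labelled as its control, with 2 libraries in each. Cells of both groups were kept in low glucose for 6 h, and 10% serum is given for all 4 libraries, so no library shows either group in other medium. Separate cultures are not stated in the labels, nor is the number of hairpin sequences or clones, so a p-value reflects the spread among 4 libraries, some or all of which may be technical.

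TGF-beta ligands are secreted in a latent complex and, once released, bind the type II receptor TGFBR2, which phosphorylates the type I receptor TGFBR1. TGFBR1 then phosphorylates SMAD2 and SMAD3, which join SMAD4 and enter the nucleus to act on target genes. TGFBR3 (betaglycan) is a coreceptor that presents ligand, above all TGFB2, to the signalling receptors, and SMAD7 is an inhibitory SMAD that blocks the type I receptor and is itself induced by the pathway. In glioma the pathway is known for its part in invasion, growth and immune suppression, and TGFB2 was described early as a product of glioblastoma cells.

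In the shGlud1 libraries 7 of the 10 genes were higher and 0 lower at an adjusted p under 0.05 in edgeR's quasi-likelihood test, and 3 did not pass it. The number lower was also 0 at an unadjusted p under 0.05, by DESeq2 (all genes 24.0% higher and 26.8% lower) and by limma-voom (all genes 29.5% lower). Among all 14616 genes tested, 61.0% passed, 31.9% as higher and 29.1% as lower in shGlud1 cells. The 4 largest differences were those of TGFBR3, TGFB2, SMAD3 and TGFBR2, each about 3-fold and above those of 94.8% to 96.0% of all genes tested. TGFBR1, SMAD4 and TGFB1 were higher by smaller amounts, and TGFB3, SMAD2 and SMAD7 did not pass. The median log2 fold change of the 10 genes was 0.80, beside 0.06 for all genes. Each log2 fold change has shGlud1 on top and is followed by its standard error (SE). Levels are CPM, library-scaled counts that use TMM factors (which correct for differences in library composition), given per library. In bulk RNA, fewer cells that express a gene and less RNA per cell cannot be told apart.

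The depth was 17407149 and 18537314 expected counts in the shGlud1 libraries, against 16546849 and 18118503 in the shNT libraries. GLUD1 itself had 34.0 and 44.5 CPM in shGlud1 cells, against 78.1 and 76.5 CPM in shNT cells (log2 fold change -0.98, SE 0.13) and so was lower in the cells labelled as its knockdown. Its close copy GLUD2 had 1 to 7.9 counts a library and was not tested. Of the markers of a glioma line, VIM, CD44 and NES were present (the summed level of the 7 markers was 5210 to 5738 CPM in shGlud1 and 3012 to 3157 CPM in shNT), while GFAP, S100B, SOX2 and OLIG2 had at most 6 counts in any library. Markers of immune, epithelial and endothelial cells were low. Summed levels were 0.050 to 0.61 CPM in shGlud1 and 2.74 to 2.93 CPM in shNT for 3 immune markers. For 3 epithelial markers they were 0.950 to 0.955 CPM in shGlud1 and 3.14 to 3.88 CPM in shNT. For 2 endothelial markers the sums were 0.50 to 0.52 CPM in shGlud1 and 0.59 to 0.66 CPM in shNT. The sums of 3 neuronal markers, mostly from SYT1, were higher, with 7.65 to 8.59 CPM in shGlud1 and 5.23 to 5.79 CPM in shNT. In each group these neuronal sums were above the levels of TGFB3 and TGFBR3. The defining immune markers PTPRC and CD3E had 0 or 1 counts in each library. CD14 and KRT18 were called as lower in shGlud1 cells. RBFOX3, VIM (log2 fold change 0.99, SE 0.17) and NES (1.93, SE 0.18) were called as higher, and CD44 (0.09, SE 0.15) did not pass. The part of these markers in the results was not tested. Over the tested genes, which are no independent replicates, the fold change followed the length of the longest annotated transcript (Spearman correlation 0.447), as did the ratio of shGlud1 replicate 2 to replicate 1 (0.33). Results with a smooth trend on transcript length removed are given beside each of the 10 genes whose call they change.

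**Figure D1:**
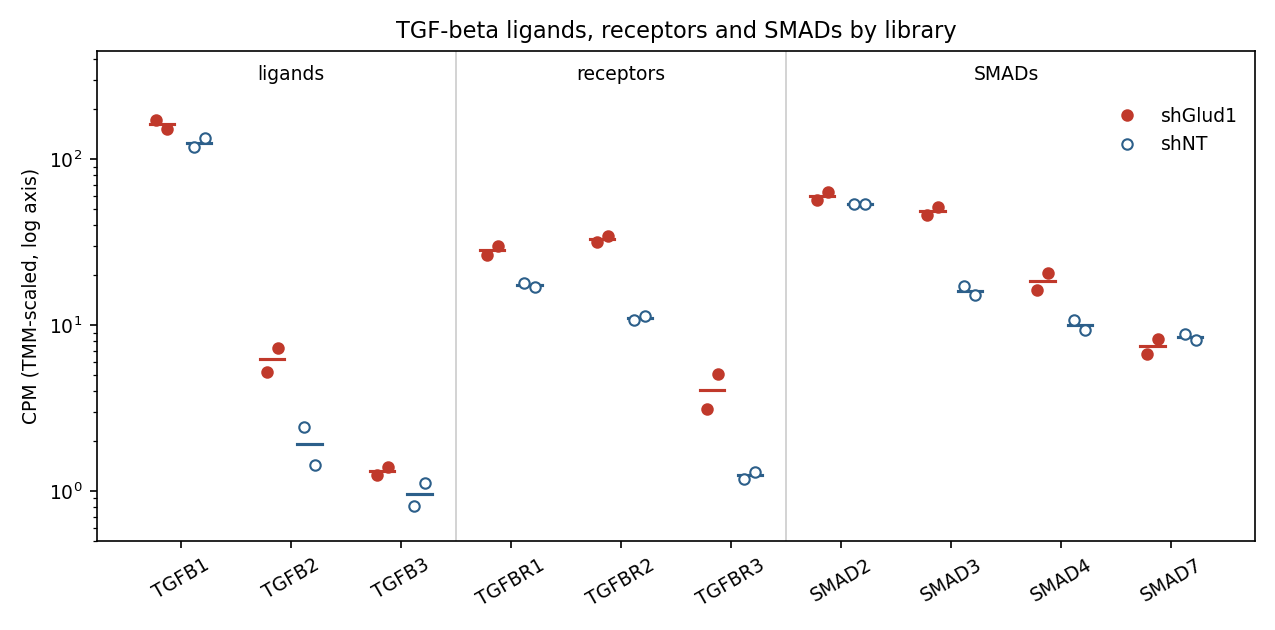
TMM-scaled CPM (log axis) of the 10 genes in each library. Filled points are shGlud1 and open points shNT, with a line at each group's mean (n = 2). The groups are furthest apart for TGFB2, TGFBR2, TGFBR3 and SMAD3, and overlap for SMAD7.

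The sequences just upstream of the annotated starts of TGFB2, TGFBR2 and SMAD3 are shown because these are 3 of the 4 genes with the largest differences. The fourth, TGFBR3, is left out because its window overlaps an annotated exon of the gene. Each line holds the 250 bases before the most upstream RefSeq start (GRCh38.p14), written 5′ to 3′ on the gene's strand. They lie at chr1:218345086-218345335 (plus strand) for TGFB2, chr3:30606106-30606355 (plus strand) for TGFBR2 and chr15:67065352-67065601 (plus strand) for SMAD3. Capitals mark the letters CAGAC, a short element that SMAD3 and SMAD4 can bind, and CACGTG, an E-box bound by basic helix-loop-helix factors, both searched on both strands.
TGFB2: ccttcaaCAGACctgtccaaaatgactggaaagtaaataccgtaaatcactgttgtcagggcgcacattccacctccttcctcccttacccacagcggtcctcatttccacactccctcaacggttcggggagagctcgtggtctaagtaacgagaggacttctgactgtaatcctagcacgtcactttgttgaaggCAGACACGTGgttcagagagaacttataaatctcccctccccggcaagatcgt
TGFBR2: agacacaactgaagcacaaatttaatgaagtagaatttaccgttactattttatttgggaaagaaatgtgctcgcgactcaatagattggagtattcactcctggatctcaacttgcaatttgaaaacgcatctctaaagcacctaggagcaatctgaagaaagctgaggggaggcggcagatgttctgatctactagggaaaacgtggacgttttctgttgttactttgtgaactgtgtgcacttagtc
SMAD3: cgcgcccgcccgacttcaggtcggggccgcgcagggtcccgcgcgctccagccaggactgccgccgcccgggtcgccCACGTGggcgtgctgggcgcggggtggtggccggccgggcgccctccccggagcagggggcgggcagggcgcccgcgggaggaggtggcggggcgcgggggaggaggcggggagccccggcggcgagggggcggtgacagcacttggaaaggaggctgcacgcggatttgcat
The TGFB2 window held CAGAC at 2 places and the E-box at 1, and the second CAGAC shared a base with the E-box. The SMAD3 window held the E-box once and no CAGAC, and the TGFBR2 window held neither. Of 35116 windows of the same length in the RefSeq table, 38.0% held the SMAD-binding letters and 6.34% the E-box. The core promoter letters TATAAA were searched for in the same way and are not capitalised, and they stood in the TGFB2 window and in 10.7% of all windows. The AP-1 motif, spelled TGACTCA, was in none of these 3 windows and in 4.2% of all. An exon of another annotated gene overlaps the TGFB2 window, and the SMAD3 window lies within the wider bounds that GENCODE gives that gene, outside its exons. The windows differed in base composition, with 50.4% G or C for TGFB2, 40.8% for TGFBR2 and 80.8% for SMAD3.

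Among the ligand genes, TGFB2 showed the clear difference. TGFB2 (ENSG00000092969, GRCh38 chromosome 1, 218346235 to 218444619), the ligand that depends most on the coreceptor, had 5.20 and 7.25 CPM in shGlud1 cells, against 2.42 and 1.44 CPM in shNT cells. Both shGlud1 libraries were above both shNT libraries. The log2 fold change of 1.70 (SE 0.29) had an adjusted p of 2.18e-08 by edgeR's quasi-likelihood test, a 3.26-fold difference with a 95% interval of 2.20 to 4.83. These levels rest on 104 and 167 counts in shGlud1 libraries and 33 and 22 in shNT libraries.

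TGFB1 (ENSG00000105329, chromosome 19, 41301587 to 41353911), the most abundant of the 10 genes per kilobase of transcript, had 173 and 151 CPM in shGlud1 cells, against 118 and 133 CPM in shNT cells. The groups did not overlap, but the log2 fold change was only 0.37 (SE 0.13), with an adjusted p of 0.0102 by edgeR's quasi-likelihood test. Its call ended without shGlud1 replicate 1 (0.25, adjusted p = 0.0571), without shNT replicate 1 (0.28, 0.259) and without shNT replicate 2 (0.46, 0.0523). It also ended with a trend on principal transcript length removed (0.25, adjusted p = 0.0662). The annotated exons of TGFB1 overlap those of HNRNPUL1 on the opposite strand, and the TruSeq V2 kit does not mark strand, so reads in the shared part cannot be told apart. HNRNPUL1 had 198 and 206 CPM in shGlud1 cells and 131 and 116 CPM in shNT cells (log2 fold change 0.71, SE 0.13).

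TGFB3 (ENSG00000119699, chromosome 14, 75958099 to 75982991), the third ligand, was near the limit of what these libraries can measure. It had 25 and 32 counts (1.25 and 1.39 CPM) in shGlud1 cells, against 11 and 17 counts (0.81 and 1.11 CPM) in shNT cells. Its log2 fold change of 0.45 (SE 0.49) had an adjusted p of 0.431 by edgeR's quasi-likelihood test and did not pass. The 95% interval of the fold ran from 0.70 to 2.67, so neither a modest fall nor a rise of the size seen for TGFBR1 can be set aside at this depth.

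All 3 receptor genes passed the test, with unequal sizes. TGFBR2 (ENSG00000163513, chromosome 3, 30606502 to 30694142), the type II receptor kinase that binds ligand, had 31.6 and 34.5 CPM in shGlud1 cells, against 10.7 and 11.3 CPM in shNT cells. The gap between the groups was many times the spread within them. Its log2 fold change was 1.59 (SE 0.16), with an adjusted p of 5.91e-21 by edgeR's quasi-likelihood test, a 3.0-fold difference with a 95% interval of 2.41 to 3.75.

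TGFBR3 (ENSG00000069702, chromosome 1, 91680343 to 91906335), the coreceptor, had 3.10 and 5.03 CPM in shGlud1 cells, against 1.17 and 1.31 CPM in shNT cells. The shGlud1 libraries differed from each other by more than the shNT libraries did, and both were higher than either control. The log2 fold change was 1.71 (SE 0.35), with an adjusted p of 3.19e-06 by edgeR's quasi-likelihood test, from 62 and 116 counts in shGlud1 libraries and 16 and 20 counts in shNT libraries.

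TGFBR1 (ENSG00000106799, chromosome 9, 99104038 to 99154192), the type I receptor kinase that phosphorylates SMAD2 and SMAD3, had 26.4 and 30.1 CPM in shGlud1 cells, against 17.9 and 17 CPM in shNT cells. The groups did not overlap, and the log2 fold change was 0.70 (SE 0.16), with an adjusted p of 2.42e-05 by edgeR's quasi-likelihood test. With the trend on longest transcript length removed it was 0.16 (adjusted p = 0.383), and the call also ended with the principal length trend (0.08, 0.673) or length and GC trends (0.09, 0.527) removed.

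Of the SMAD genes, SMAD3 stood apart. SMAD3 (ENSG00000166949, chromosome 15, 67063763 to 67195195), the receptor-activated SMAD that binds DNA directly, had 46.2 and 51.7 CPM in shGlud1 cells, against 17.1 and 15.1 CPM in shNT cells. The log2 fold change was 1.60 (SE 0.15), with an adjusted p of 7.77e-26 by edgeR's quasi-likelihood test, a 3.04-fold difference with a 95% interval of 2.49 to 3.72. It had the lowest adjusted p of the 10 genes.

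SMAD2 (ENSG00000175387, chromosome 18, 47808957 to 47931146), the other SMAD activated by TGFBR1, was nearly level, with 56.7 and 63.1 CPM in shGlud1 cells against 53.5 and 53.7 CPM in shNT cells. The groups did not overlap, yet the log2 fold change of 0.16 (SE 0.13) had an adjusted p of 0.287 by edgeR's quasi-likelihood test and did not pass, and the 95% interval of the fold was 0.94 to 1.34. Its direction depended on the scaling. It was called as higher under total counts alone (0.68, adjusted p = 4.97e-06) and with the median transcript length trend removed (0.31, 0.0349). It was called as lower with the longest (-0.57, 3.62e-05) or principal (-0.59, 2.27e-05) transcript length trend removed, and with length and GC trends removed (-0.71, 1.09e-05). The longest annotated SMAD2 transcript is 34526 nt and its shortest principal transcript 12075 nt, both above those of the other 9 genes.

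SMAD4 (ENSG00000141646, chromosome 18, 51028394 to 51085045), the partner shared by all receptor-activated SMADs, had 16.3 and 20.7 CPM in shGlud1 cells, against 10.7 and 9.28 CPM in shNT cells. The groups did not overlap, and the log2 fold change was 0.89 (SE 0.18), with an adjusted p of 3.35e-06 by edgeR's quasi-likelihood test. With the longest transcript length trend removed it was 0.25 and no longer called (adjusted p = 0.207), nor was it with the principal length trend (0.21, 0.296) or length and GC trends (0.07, 0.717) removed.

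SMAD7 (ENSG00000101665, chromosome 18, 48919853 to 48952052), the inhibitory SMAD, had 6.65 and 8.20 CPM in shGlud1 cells, against 8.79 and 8.17 CPM in shNT cells. It was the only one of the 10 genes whose groups overlapped. The log2 fold change of -0.19 (SE 0.22) had an adjusted p of 0.460 by edgeR's quasi-likelihood test and did not pass, and the 95% interval of the fold was 0.65 to 1.18. SMAD7 was called as lower with the longest (-0.47, adjusted p = 0.0367) or principal (-0.62, 0.00465) transcript length trend removed, and was 0.34 (0.215) under total counts alone. For 9 of the 10 genes both shGlud1 libraries were above both shNT libraries, as for 42.8% of all genes tested.

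TGFB2, TGFBR2, TGFBR3 and SMAD3 were called as higher in each of the 16 other ways of processing the counts. Their lowest log2 fold changes there were 1.20, 0.98, 0.92 and 1.00 in that order. Single alternatives called from 19.8% (no filter on low counts) to 51.9% (total counts alone) of the genes tested as higher. The share of all genes called as higher in every alternative was not counted, so this stability cannot be called particular to these 4 genes. With the trend on longest transcript length removed, 5 of the 10 genes rose and 2 fell, where 26.9% of all genes rose and 28.7% fell. On median length 8 rose and 0 fell (all genes 28.9% and 29.3%), on principal length 4 rose and 2 fell (all genes 26.8% and 28.5%), and with length and GC trends removed 5 rose and 1 fell (all genes 27.1% and 28.3%). Scaling by total counts alone raised the median of all genes by 0.52 to 0.57, and TGFB2, TGFBR2, TGFBR3 and SMAD3 then stood at 2.11 to 2.24. All of the 10 genes but TGFB1 had a higher CPM in shGlud1 replicate 2 than in replicate 1. The share of all genes that did so was not counted, and this ratio followed transcript length over all genes (Spearman correlation 0.33). Without shGlud1 replicate 2 the same 4 genes stood at 1.31 to 1.52, each still called.

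**Figure D2:**
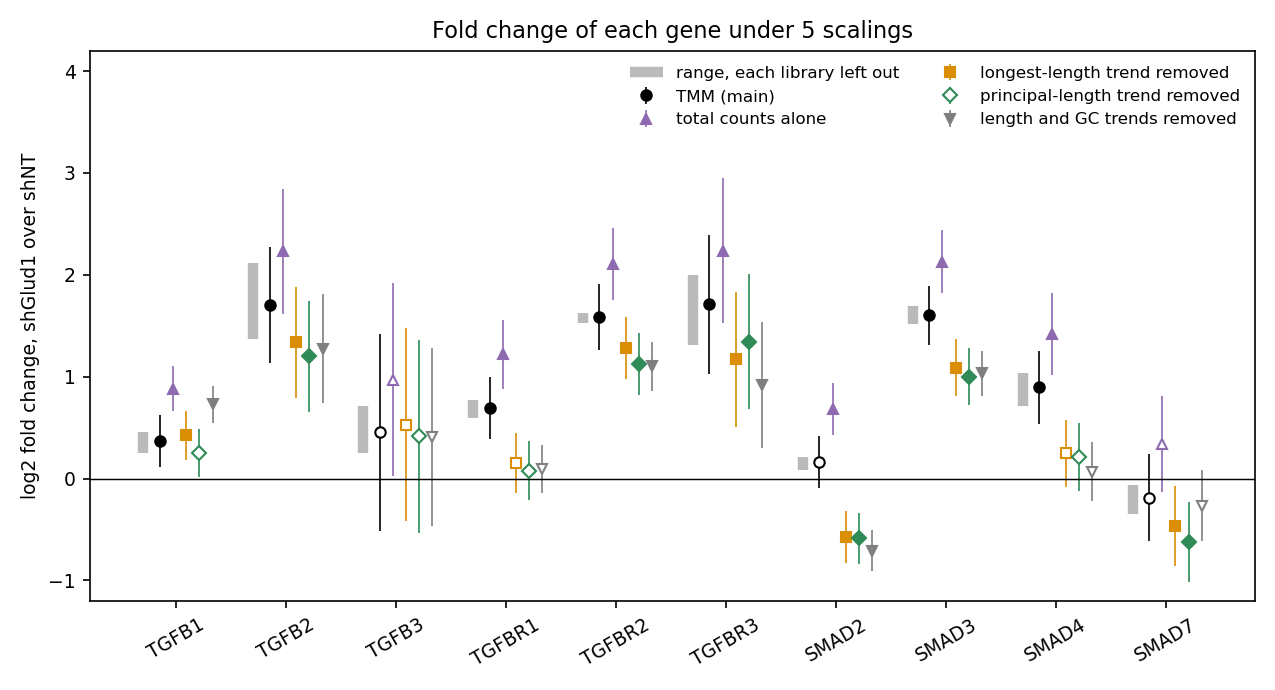
Log2 fold change, shGlud1 over shNT, of the 10 genes under TMM scaling and 4 other treatments of the same counts, with bars for 95% intervals, and the range when each library is left out (grey, no error shown). Filled symbols passed an adjusted p of 0.05 and open ones did not. TGFB2, TGFBR2, TGFBR3 and SMAD3 lie at about 0.92 or higher throughout, while SMAD2 lies on either side of 0.

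Ratios between 2 genes of one library do not depend on the scaling of that library, though they can still move with transcript length. SMAD3 took 44.9% (95% Wilson interval 42.7 to 47.0) and 45% (43.2 to 47.0) of the reads of SMAD2 and SMAD3 together in the shGlud1 libraries, against 24.2% (21.7 to 27.1) and 21.9% (19.5 to 24.5) in the shNT libraries. There were thus 0.81 and 0.82 SMAD3 reads for each SMAD2 read in shGlud1 cells, against 0.32 and 0.28 in shNT cells. TGFBR2 took 54.5% (51.6 to 57.4) and 53.4% (50.9 to 55.9) of the reads of both kinase receptors in the shGlud1 libraries, against 37.4% (32.8 to 42.3) and 40.0% (35.4 to 44.6) in the shNT libraries. In read counts TGFBR2 was therefore the larger of the pair in shGlud1 cells and TGFBR1 in shNT cells.

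TGFB2 was a small part of the ligand reads, with 2.92% (2.41 to 3.52) and 4.57% (3.94 to 5.29) of the TGFB1 and TGFB2 reads in shGlud1 libraries, against 2.01% (1.44 to 2.81) and 1.07% (0.70 to 1.61) in shNT libraries. The intervals of shGlud1 replicate 1 and shNT replicate 1 overlap. There were 0.14 and 0.16 SMAD7 reads for each SMAD3 read in shGlud1 cells, against 0.51 and 0.54 in shNT cells. These intervals cover counting error within a library only, and not the spread between libraries. No molecular identifiers are stated for these PCR-amplified libraries, so repeated copies of a molecule cannot be told apart and the intervals may be too narrow. With 2 libraries against 2, an exact permutation test cannot go below p = 0.333, so no test was made of these ratios.

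**Figure D3:**
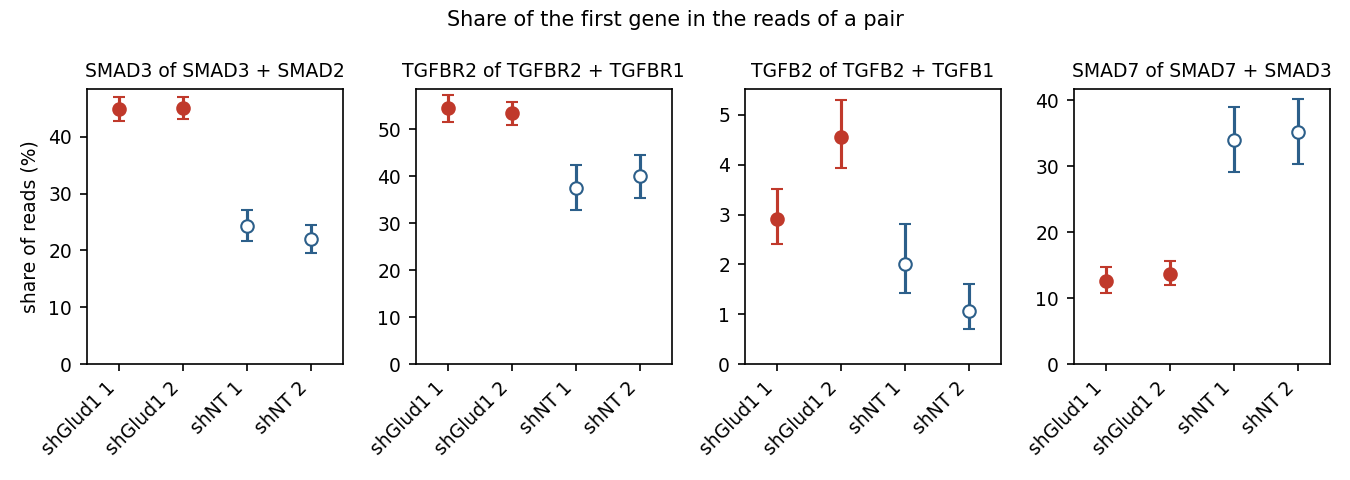
Share of reads (%) taken by the first gene of each pair in each library, with 95% Wilson intervals. Filled points are shGlud1 and open points shNT. SMAD3 takes about 45% of the SMAD2 and SMAD3 reads in the shGlud1 libraries, against 21.9% and 24.2% in the shNT libraries, and the share of SMAD7 beside SMAD3 lies lower in shGlud1.

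Levels of different genes were compared as CPM per kilobase of the longest annotated transcript (mean ± SD, n = 2). TGFB1 led in both groups, with 58.6 ± 5.48 CPM per kilobase in shGlud1 and 45.4 ± 4.0 in shNT. In shGlud1 cells SMAD3 (7.84 ± 0.63) and TGFBR2 (7.15 ± 0.43) came next and differed by little more than their spread, ahead of TGFBR1 (4.33 ± 0.40). In shNT cells TGFBR1 (2.68 ± 0.10), SMAD3 (2.58 ± 0.23) and TGFBR2 (2.38 ± 0.09) lay close together. SMAD4 (2.11 ± 0.35), SMAD2 (1.74 ± 0.13) and SMAD7 (1.68 ± 0.25) followed in shGlud1 cells, where SMAD2 and SMAD7 differed by less than their spread.

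In shNT cells SMAD7 (1.92 ± 0.10), SMAD2 (1.55 ± 0.004) and SMAD4 (1.14 ± 0.11) came after the kinase receptors TGFBR1 and TGFBR2. The lowest in shGlud1 cells were TGFB2 (1.23 ± 0.29), TGFBR3 (0.63 ± 0.21) and TGFB3 (0.49 ± 0.04), the last 2 within their spread, though on principal length TGFBR3 was at 1.04 and TGFB3 at 0.52. In shNT cells TGFB2 (0.38 ± 0.14) and TGFB3 (0.35 ± 0.08) were within their spread, and TGFBR3 (0.19 ± 0.01) was lowest. The place of SMAD2 depends on its length: on the 12075 nt transcript it was at 4.96 CPM per kilobase in shGlud1 cells and 4.44 in shNT cells, second only to TGFB1 in shNT cells. Per kilobase, TGFBR2 made up 59.1% ± 1.53 of the 3 receptor genes in shGlud1 cells and 45.4% ± 1.67 in shNT cells. On median transcript length TGFBR2 made up 21.1% in shGlud1 cells and 12.9% in shNT cells, and TGFBR1 led with 74.8% in shGlud1 and 84.8% in shNT. SMAD3 made up 67.1% ± 1.00 of SMAD2, SMAD3 and SMAD4 in shGlud1 cells and 48.9% ± 1.22 in shNT cells, or 52.3% ± 0.57 in shGlud1 and 31.4% ± 1.52 in shNT on principal transcript lengths.

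Other genes of the pathway were counted from 4 lists of known members. In the list of latency, activation and extracellular control, 5 of the 15 genes tested rose and 3 fell, where 31.9% of all genes rose and 29.1% fell, so the risen share was near that of all genes (median log2 fold change 0.20, beside 0.06 for all genes). LTBP1, which holds latent ligand in the matrix, had 132 and 140 CPM in shGlud1 cells and 51.3 and 50.6 CPM in shNT cells (1.42, SE 0.13). FBN1, the fibrillin to which such complexes bind, also rose (1.06, SE 0.13). THBS1, thrombospondin 1, which can activate latent TGF-beta, had 20.0 and 21.2 CPM in shGlud1 cells and 47.8 and 52.6 CPM in shNT cells (-1.29, SE 0.14), and the procollagen protease gene BMP1 fell as well (-0.62, SE 0.13). THBS1 was at -2.13 and FBN1 at 0.17 with length and GC trends removed, and the FBN1 call ended there (adjusted p = 0.121). The BMP1 call ended under total counts alone (-0.10, adjusted p = 0.470). Without shNT replicate 2 the number that rose was 2 (all genes 25.6%), and with the longest transcript length trend removed the list median was -0.08.

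In the list of receptor partners, SMAD regulators and turnover, 13 of 21 genes tested rose and 3 fell (median 0.52), beside 31.9% and 29.1% of all genes. With the longest transcript length trend removed 9 rose (all genes 26.9%) and the median was 0.29. By DESeq2 (all genes 24.0% higher) the calls of ENG, STRAP, FKBP1A and TGFBRAP1, named after their values were seen, ended. Their adjusted p by DESeq2 was 0.197, 0.205, 0.109 and 0.159 in that order. CAV1, which encodes caveolin 1 of the membrane compartment where receptors are degraded, had 226 and 270 CPM in shGlud1 cells and 89.4 and 111 CPM in shNT cells (1.31, SE 0.14). NEDD4L, a ubiquitin ligase for activated SMAD2 and SMAD3, rose by 1.22 (SE 0.13), but by only 0.34 with length and GC trends removed, where CAV1 rose by 1.02. The 3 that fell were BAMBI, PMEPA1 and SKIL, of which SKIL was named after its values were seen. Other negative regulators in the list were not lower: SMURF2 (1.09, SE 0.23) and SKI (1.10, SE 0.16) rose, and SMAD6 (0.52, SE 0.35) did not pass (also named after their values were seen).

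BAMBI, a decoy receptor, had 8.30 and 9.29 CPM in shGlud1 cells and 20.8 and 16.8 CPM in shNT cells (-1.09, SE 0.18). PMEPA1, which keeps SMAD2 and SMAD3 from the receptor, had 24.1 and 23.8 CPM in shGlud1 cells and 48.6 and 50.4 CPM in shNT cells (-1.05, SE 0.14). SKIL, a nuclear corepressor of SMADs, had a log2 fold change of -0.72 (SE 0.25) and adjusted p of 0.0074 in edgeR's quasi-likelihood test. Its call ended under total counts alone (-0.19, adjusted p = 0.537), without shGlud1 replicate 1 (-0.55, 0.0717) and without shNT replicate 2 (-0.69, 0.0596). With the longest transcript length trend removed SKIL was at -1.31. BAMBI and PMEPA1 were called as lower under all 16 alternatives. Single alternatives called from 13.7% (total counts alone) to 30.8% (RLE factors) of the genes tested as lower, and the share called as lower in every alternative was not counted.

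The activin and BMP branch uses related receptors and SMADs. In the list of its genes and other ligands of the TGF-beta superfamily, 8 of 20 genes tested rose and 4 fell (median 0.36), beside 31.9% and 29.1% of all genes. The secreted glycoprotein gene FSTL1 had 107 and 127 CPM in shGlud1 cells and 38.8 and 33.2 CPM in shNT cells (1.70, SE 0.13), and the type I BMP receptor gene BMPR1A rose by 1.42 (SE 0.26). GDF15, a stress-induced ligand of the superfamily, had 111 and 108 CPM in shGlud1 cells and 335 and 311 CPM in shNT cells (-1.56, SE 0.14), and the activin inhibitor gene FSTL3 fell (-1.54, SE 0.19). With length and GC trends removed FSTL1 was at 0.97, BMPR1A at 0.58 and GDF15 at -0.68, each still called. Without shNT replicate 1 the number that rose was 5 (all genes 25.1%), and with the longest transcript length trend removed it was 4 (all genes 26.9%) and the median 0.13.

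Of the genes that TGF-beta induces in many cell types, 9 of 24 tested rose and 6 fell, beside 31.9% and 29.1% of all genes. The list median was 0.12, beside 0.06 for all genes. CYR61, a matrix signalling protein gene, had 222 and 227 CPM in shGlud1 cells and 79.7 and 75.5 CPM in shNT cells (1.53, SE 0.14), and FN1, the fibronectin gene, had 214 and 213 CPM in shGlud1 cells and 109 and 106 CPM in shNT cells (0.99, SE 0.13). The FN1 call ended with length and GC trends removed (0.13, adjusted p = 0.290). TAGLN, an actin-binding protein gene, had 2.35 and 2.17 CPM in shGlud1 cells and 24.2 and 18 CPM in shNT cells (-3.22, SE 0.22), and the cytokine gene IL11 had 34.1 and 32.9 CPM in shGlud1 cells and 117 in each shNT library (-1.80, SE 0.13). With the principal length trend removed TAGLN was at -2.63. Members of this list thus passed the test in both directions, as did genes over the whole table, and both shares were near those of all genes. Under total counts alone 15 rose and 3 fell, where 51.9% of all genes tested rose and 13.7% fell.

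**Figure D4:**
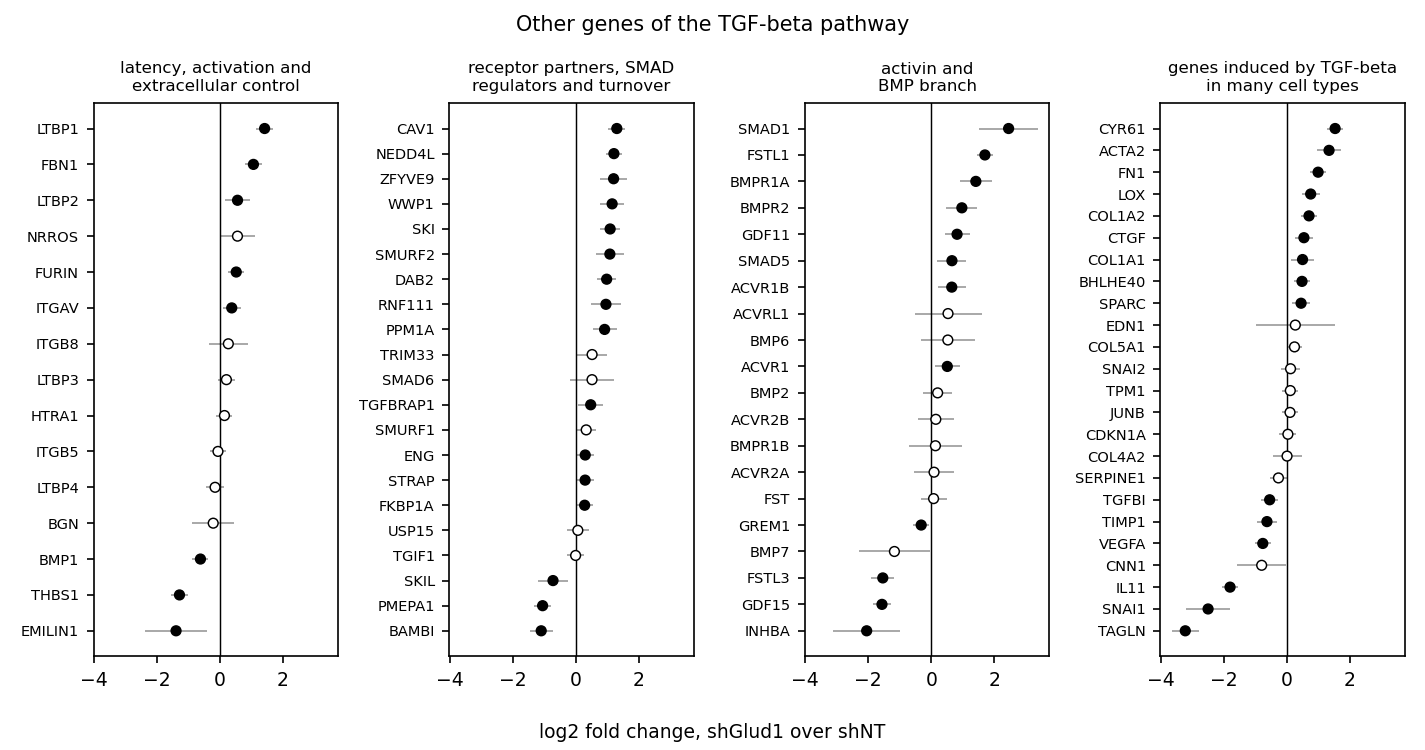
Log2 fold change, shGlud1 over shNT, of the tested genes of 4 pathway lists, with bars for 95% intervals. Filled points passed an adjusted p of 0.05. Each list has called genes on both sides of 0, as have all genes tested (31.9% higher and 29.1% lower), and TAGLN lies lowest at -3.22.

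TGFBR3 (1.71, SE 0.35) had the largest fitted rise of the 10 genes, tied within error with TGFB2 (1.70, SE 0.29), which was the larger by limma-voom (1.73 against 1.66) and with the longest transcript length trend removed (1.34 against 1.17). The genes whose log2 CPM, centred on each gene's mean, lay nearest to TGFBR3 over the 4 libraries were CENPF, a row named CTC-510F12 (ENSG00000267576, a symbol that 3 rows share) and ELOVL6. CENPF, a kinetochore protein gene, differed from TGFBR3 by a root-mean-square of 0.034 on the log2 scale, CTC-510F12 by 0.077 and the fatty acid elongase gene ELOVL6 by 0.079. This likeness rests on 4 libraries in 2 groups, and each of these differences is smaller than the SE of TGFBR3. The log2 fold changes were 1.70 for CENPF, 1.81 for CTC-510F12 and 1.82 for ELOVL6. Their like size follows from choosing these genes by their values in the same libraries.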

How the data were processed

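The authors deposited 1 table of expected counts, estimated reads per gene that need not be whole. Bowtie 0.12.2 and a mouse build, mm8, stand in the submitters' processing notes, although the rows carry human Ensembl IDs, which leaves the build uncertain. How reads were counted, and on which annotation, is not given in the sources used here. Per the labels' protocols, poly-A RNA went into TruSeq V2 libraries amplified by PCR and read from both ends.

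Counts were rounded. edgeR 4.0.16 (R 4.3.3) with filterByExpr (minimum count 10), TMM factors (1.15 and 1.24 for shGlud1, 0.826 and 0.845 for shNT) and the robust quasi-likelihood test compared shGlud1 with shNT. Adjusted p is Benjamini-Hochberg over all 14616 genes, called under 0.05. The SE is the absolute log2 fold change over the square root of F, and 95% intervals use the normal quantile of that SE. The test was checked on simulated counts. Libraries of a group differed by more than sampling noise (chi-square per degree of freedom 15.1 for shGlud1 and 5.87 for shNT). Gene lengths and positions came from GENCODE 29 (GRCh38) by Ensembl ID. DESeq2 1.42.0, limma 3.58.1 (voom), other factors and filters, left-out libraries and removal of a lowess trend (span 0.3) on transcript length were alternatives; the median-length, principal-length and length-with-GC versions were chosen after seeing the data. Principal transcripts are those marked by APPRIS, the shortest where several are.

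The 10 genes and the lists were chosen with earlier results of these data known. The text names these genes, GLUD1, from each list at most 2 risen and 2 fallen called genes (those of lowest p), and the 3 genes nearest to the called gene with the largest rise. SKIL, SMURF2, SKI, SMAD6, ENG, STRAP, FKBP1A, TGFBRAP1, HNRNPUL1 and some markers are named outside this rule. No called gene of the 10 fell.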

Additional observations from a re-analysis of the deposited data

How the results depend on the processing

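Total counts alone, whose construction leaves the composition of the libraries uncorrected, gave 7592 genes (51.9%) higher and 2000 (13.7%) lower in shGlud1. There 11 of 15 latency genes rose and 1 fell, 15 of 24 induced genes rose and 3 fell, and SMAD7 turned to 0.34. DESeq2, by which 24.0% of all genes rose, gave 3 risen latency genes and 5 risen activin and BMP genes. With the longest transcript length trend removed (all genes 26.9% higher and 28.7% lower), 2 of the 10 genes fell and SMAD2 turned to -0.57. There 5 of 15 latency genes fell and 4 of 20 activin and BMP genes rose. With the principal length trend removed (all genes 26.8% higher and 28.5% lower), 4 of the 10 rose and 2 fell, and SMAD2 turned to -0.59. There 2 of 15 latency genes rose and 5 fell, and 4 of 20 activin and BMP genes rose. With length and GC trends removed (all genes 27.1% higher and 28.3% lower), 1 of the 10 fell and SMAD2 turned to -0.71. There 3 of 20 activin and BMP genes rose. With each library left out in turn, the latency genes that rose numbered 2 to 5 and the activin and BMP genes 5 to 8; an arm left with 1 library was assumed to vary like the other. These lists held 15 and 20 tested genes. In each of these fits the share of all genes that rose was also smaller than the 31.9% found with all 4 libraries. Differences in share (percentage points, shGlud1 minus shNT) moved on median length to -0.378 for TGFB1, 0.340 for TGFB2, -9.98 for TGFBR1, 8.22 for TGFBR2, -21.3 for SMAD2 and 20.6 for SMAD3. They moved on counts without length to -2.23 for TGFB1, 2.19 for TGFB2 and -20.2 for SMAD2, and on principal length to -21.1 for SMAD2 and 20.9 for SMAD3. The share of SMAD4, -3.56 on longest length, turned to 0.736 on median length, 1.98 on counts and 0.182 on principal length. Beyond these constructions, the cause was not tested. With the replicate number as a block 9046 genes were called, beside 8919 without it, and no call among the 10 genes changed. The deviations of same-numbered libraries had a correlation of 0.033. With 2 libraries in each group this value cannot show whether the libraries were paired, and the labels give only a replicate number. Depth limits TGFB3, TGFB2 and TGFBR3 most, with 11 to 167 counts a library.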
